A study of Mus musculus with 6 samples.

Results

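The proteasome genes of this series were the rows of the authors' deposited table whose symbol begins with Psm, a letter from a to g and a digit, other than Psmb8 and Psmb9. The rule found 47 genes among the 21937 of the table. They comprised 17 genes of the core particle, 22 of the regulatory particles and 7 of assembly chaperones, while Psmc3ip, a factor of meiotic recombination, matched by its name alone. The proteasome is the protease that degrades ubiquitin-tagged proteins. Its 20S core is a barrel of alpha and beta rings with the active sites inside. The 19S regulatory particle recognises ubiquitin, removes it, and unfolds and threads the substrate with a ring of ATPases. In neurons, proteasomal degradation is known for its part in cell cycle exit, axon growth and the turnover of synaptic proteins.

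Cells came from the cortex of mouse embryos that were given a plasmid by in utero electroporation at embryonic day 14.5. The plasmid encoded either an shRNA that targets Nat14 (shNat14), a gene of the N-acetyltransferase family, or a control (NTC). Embryos of both groups were collected 4 days later, at embryonic day 18.5, and their live GFP-positive cells were sorted for RNA sequencing, with 3 libraries per group. The sources used here state neither strain nor litter nor plasmid promoter, and sorting took every GFP-positive cell whatever its type. Whether libraries of the same group represent different embryos is not stated, so each p-value reflects the spread between these libraries only, and that spread may be technical.

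The table gives 1 fold change, 1 mean level and 1 p-value for each gene over both groups, so that values per library, depth and SD could not be shown. Its header does not state the direction of the fold change. It was read as shNat14 relative to NTC because the authors' deposited table gave Nat14, the target, a log2 value of -3.31 (adjusted p = 1.2e-08), which makes its sign no check of the labels. All 6 cortical identity genes examined (Emx1, Neurod6, Neurod2, Tbr1, Bcl11b and Tubb3) were at or above the median level of the table, with log2 fold changes from -0.20 to 0.24. Astrocyte markers had negative values in 6 of 6 genes (median -0.89, 4 with an unadjusted p under 0.05). Microglia markers had them in 5 of 6 (median -1.45, 3 with such a p, 4 of the 6 at or above the median level). Choroid plexus markers had positive values in 4 of 4 (median 1.35, none with such a p, 3 of the 4 at or above the median level). Among all genes above the lowest level, 2.84% had such a p with a negative fold change and 3.51% with a positive one. Endothelial markers were also positive in 4 of 4 (median 1.20, none with such a p, 1 of the 4 at or above the median level), and of the erythroid markers only Alas2 was above the lowest level, at -1.36 (p = 0.0359, adjusted p = 0.951) in the authors' deposited table. Xist, the noncoding RNA of the inactive X chromosome, was called higher in shNat14 by the authors' deposited table, at 5.12 (adjusted p = 0.0112), and the sex of the embryos is not stated in the labels. The part of embryo sex and of these cell types in the proteasome values was not tested, and in sorted bulk cells a smaller number of cells of a type and less RNA per cell cannot be told apart.

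Promoter sequences are shown first, for 3 subunit genes on which the results below turn. Psmb5 encodes the chymotrypsin-like active site and had the smallest p of the set, Psmb6 encodes the caspase-like active site and had the highest level per length, and Psmd2 encodes the scaffold of the 19S base that docks ubiquitin receptors. The sequences are from RefSeq (GRCm38.p6), 5′ to 3′ on the strand of the gene, from 250 bases before to 50 bases after the annotated start. Capitals mark matches, on either strand, to the ETS core TTCCGG or to TGANNNNGC, a loose pattern for the antioxidant response element. That element is the kind of site read by the transcription factor Nfe2l1 when proteasome genes are induced. No printed match of one motif overlaps one of the other.
Psmb5, chr14:54617946-54618245, minus strand: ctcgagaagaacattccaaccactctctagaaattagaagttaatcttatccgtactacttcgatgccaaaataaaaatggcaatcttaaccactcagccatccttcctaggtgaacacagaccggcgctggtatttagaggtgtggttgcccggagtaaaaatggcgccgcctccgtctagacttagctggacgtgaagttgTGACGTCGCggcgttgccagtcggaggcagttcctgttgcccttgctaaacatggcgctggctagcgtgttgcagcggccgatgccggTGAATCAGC
Psmb6, chr11:70525107-70525406, plus strand: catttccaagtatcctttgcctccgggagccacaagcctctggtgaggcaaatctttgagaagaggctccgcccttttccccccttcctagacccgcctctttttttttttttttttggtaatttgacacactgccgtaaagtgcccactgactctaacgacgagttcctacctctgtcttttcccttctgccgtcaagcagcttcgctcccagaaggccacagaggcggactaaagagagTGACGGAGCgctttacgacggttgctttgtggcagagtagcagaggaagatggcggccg
Psmd2, chr16:20651402-20651701, plus strand: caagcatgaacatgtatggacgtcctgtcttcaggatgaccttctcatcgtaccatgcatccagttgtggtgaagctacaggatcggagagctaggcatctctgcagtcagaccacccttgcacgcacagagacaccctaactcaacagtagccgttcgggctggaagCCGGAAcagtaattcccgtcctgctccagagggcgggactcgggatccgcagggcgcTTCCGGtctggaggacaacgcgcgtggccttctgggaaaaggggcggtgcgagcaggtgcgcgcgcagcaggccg

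Psmb5 and Psmb6 matched the loose pattern for the antioxidant response element (2 matches and 1 match) and held no ETS core. The second Psmb5 match lies at the very end of the window, after the annotated start. Psmd2 held the ETS core in 2 places and had no match to the other pattern. Of the 47 genes, 39 had a promoter in the RefSeq table. The ETS core was found in 21 of the 39, or 53.8%, against 32.2% of 7859 well-measured genes (median level or higher) and 16.7% of all 27025 genes with a promoter. The loose pattern for the antioxidant response element was found in 22 of 39, or 56.4%, against 48.5% and 45.05% in the same backgrounds. A CCAAT box (CCAAT) was present in 35.9% of the proteasome promoters and in 44.1% of those at or above the median level, and a GC box (GGGCGG) in 56.4% and 70.9%. All motifs were searched on both strands. These matches describe letters in the window and are not binding sites. Among the proteasome genes at or above the median level, the 21 with an ETS core had a median log2 fold change of -0.06 (range -0.45 to 0.31) and the 17 without one a median of -0.08 (range -0.59 to 0.34), so the ranges overlapped almost throughout. For the antioxidant response element, the 21 with a match had a median of -0.03 (10 positive, range -0.59 to 0.34) and the 17 without one a median of -0.10 (5 positive, range -0.45 to 0.31). Neither difference was tested.

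Whether proteasome genes differed in level between cells with the Nat14 shRNA and control cells was read from the authors' test over all genes. The authors' deposited table called none of the 47 at the threshold of 0.05 on the adjusted p, against 0.155% of all its genes. A single member, Psmb5, had an unadjusted p under 0.05, against 6.35% of the 17400 genes above the lowest mean level. The 47 members had a median log2 fold change of -0.06, with 19 positive and 28 negative values, beside a median of 0.00 and 52.4% positive values over those 17400 genes. In 45 members the mean level was at or above the table's median of 1.71 log2 CPM (CPM is a read count scaled to a common library total), and their fold changes spanned -0.59 to 0.37 with an SD across genes of 0.23. Among them, 1 had an absolute log2 fold change over 0.5, against 14.3% of the 7266 genes within the same range of mean levels. The members lay higher in that range (median 7.68 log2 CPM) than the 7266 genes as a whole (median 5.76), while over all of these the absolute fold change had a rank correlation with level of -0.04 across genes (Spearman's rho).

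The table holds no standard errors, so an approximate SE was taken from each fold change and its p-value, as the SE with which a normal test would give that p. For the 45 members at or above the median level it ran from 0.25 to 0.57, with a median of 0.29, and in 36 of them the fold change was smaller than its own SE. An approximate 95% interval stayed within 1 log2 unit of 0, that is between 1 halving and 1 doubling, for 42 of the 45. The others were Psmb5, Psmd3 and Psmc3ip. The authors' exact test is unresolved, and these intervals may be too narrow if it was not a normal test. At the median SE the interval reaches 0.56 log2 units either way, a rise of 47.5% or a fall of 32.2%. A call needed more, since the largest unadjusted p among the genes called in the authors' deposited table was 7.65e-05, which at the median SE takes an absolute log2 fold change of about 1.13. Changes of a single subunit below that size would usually not have been called, and the missing calls do not show that levels were equal.

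**Figure D1:**
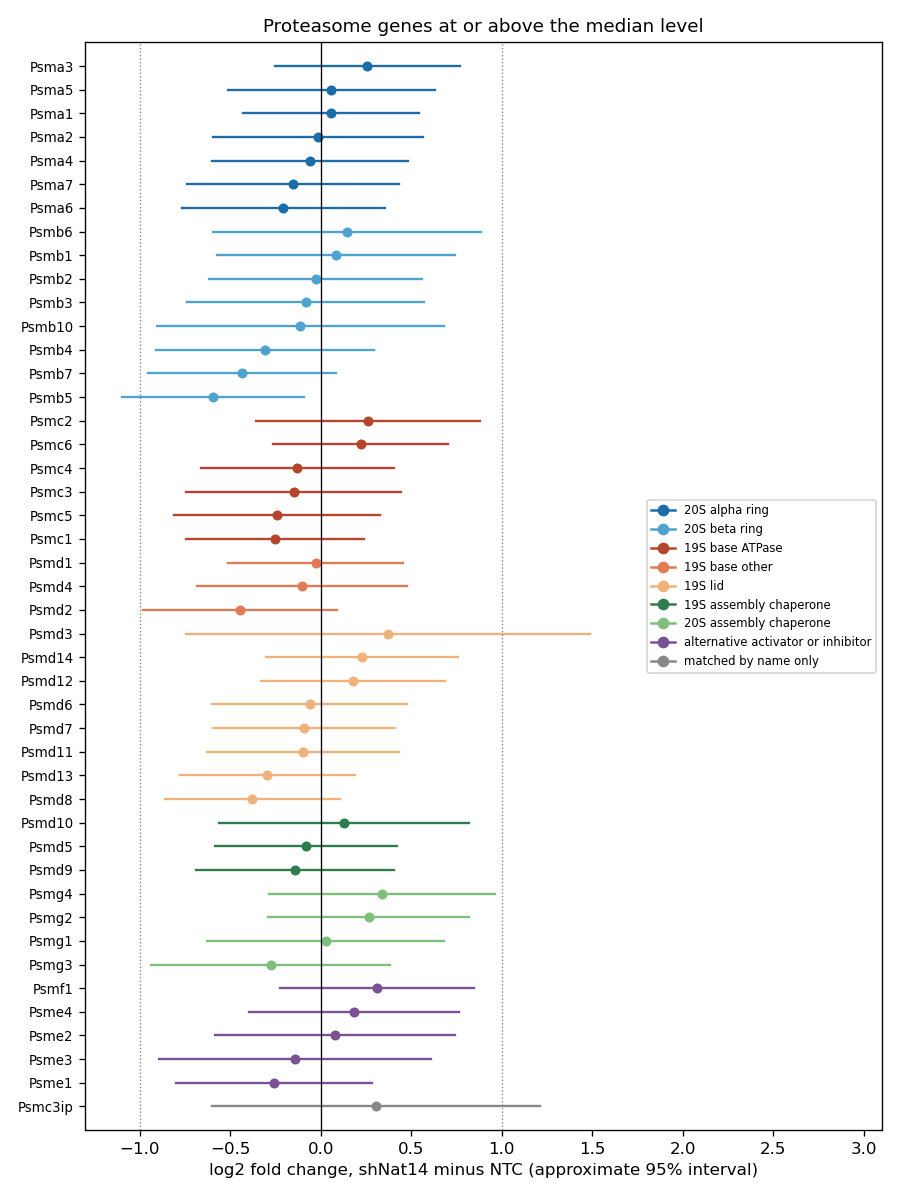
Log2 fold change (shNat14 minus NTC, horizontal axis) of the 45 proteasome genes at or above the median level, one row per gene, coloured by role. Points are the deposited values and lines the approximate 95% intervals, of which only that of Psmb5 lies wholly on one side of 0; dotted lines mark 1 log2 unit either way.

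**Figure D2:**
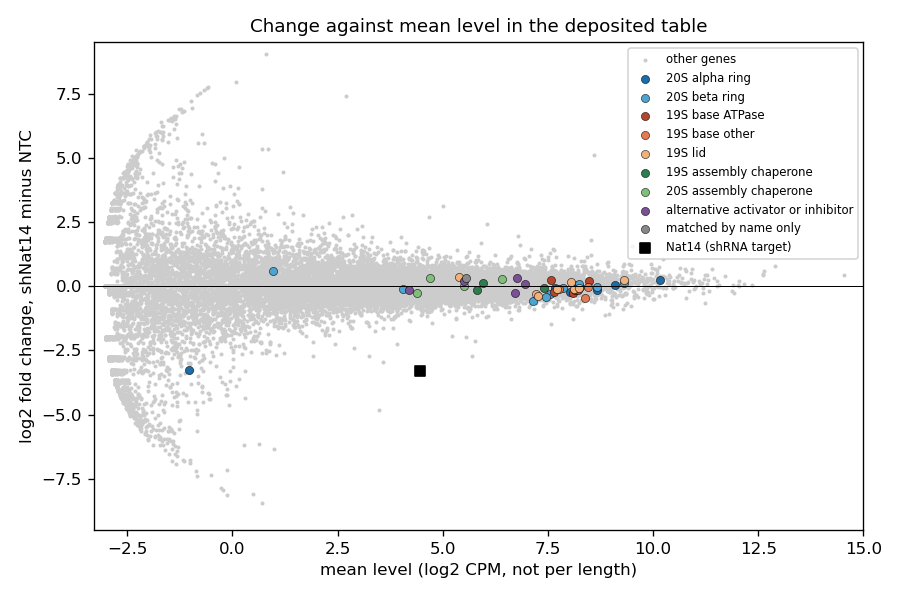
Log2 fold change (vertical axis) against mean level in log2 CPM (horizontal axis) for the genes above the lowest level, with proteasome genes coloured by role and Nat14 as a square. The proteasome genes lie near 0 between 4.06 and 10.18 log2 CPM, apart from Psma8 and Psmb11, which lie below that range of levels.

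The core particle was examined ring by ring. The alpha ring forms the gate of the barrel, and its 7 constitutive subunits (Psma1 to Psma7) spanned log2 fold changes of -0.21 to 0.26 with a median of -0.01. The authors' deposited table gave the highest value for Psma3, 0.26 (approximate SE 0.26, p = 0.322), and the lowest for Psma6, -0.21 (SE 0.29, p = 0.467). Psma1, Psma5 and Psma3 were positive and Psma2, Psma4, Psma6 and Psma7 negative, all of them within 1 SE of 0. Differences between the subunits of the ring were not tested. Psma8, the alternative subunit of testis proteasomes and paralog of Psma7, was given as -3.25 (p = 0.138) by the authors' deposited table. Its mean level was -1.02 log2 CPM, too low for the size of a fitted change to be read, since it moves with the prior count. Its approximate interval ran from -7.54 to 1.05.

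The beta ring carries the active sites, and its constitutive subunits showed a wider spread than the alpha ring, from -0.59 to 0.15 (median -0.08, SD across genes 0.28 against 0.15). For Psmb5 the authors' deposited table gave a log2 fold change of -0.59, 66.3% of the control level, at a mean of 7.13 log2 CPM (unadjusted p = 0.0207, adjusted p = 0.823). Its approximate interval ran from -1.10 to -0.09. By unadjusted p it was the 550th gene of the table. Psmb7, the trypsin-like subunit, stood at -0.44 (interval -0.95 to 0.08, p = 0.0991), and Psmb6, the caspase-like subunit, at 0.15 (interval -0.60 to 0.89, p = 0.701), in the authors' deposited table. The 3 active-site genes thus had values of both signs, their intervals overlapped, and the differences between them were not tested. Among the structural beta subunits, the authors' deposited table gave -0.31 for Psmb4 (p = 0.314), -0.08 for Psmb3, -0.03 for Psmb2 and 0.09 for Psmb1.

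Psmb10 replaces Psmb7 in the immunoproteasome, the form induced by interferon, and stood at -0.11 (interval -0.91 to 0.68, p = 0.782) at a mean of 4.06 log2 CPM in the authors' deposited table. Psmb11, the beta subunit of thymus proteasomes, stood at 0.60 (interval -0.63 to 1.83, p = 0.339) in the authors' deposited table, where its mean of 0.96 log2 CPM lay below the median. RefSeq names pseudogenes for Psmb5 (1), Psmb6 (2), Psmb7 (2) and Psma5 (1), none of them a row of the table. Reads shared with such copies would make the values of these 4 genes uncertain. Only pseudogenes named after a member were searched for, so the same doubt may apply to other members. The Psmb7 gene also overlaps Nek6, a kinase gene on the opposite strand, to which the authors' deposited table gave -0.48 (p = 0.0718). Whether counting used strand is not stated, and if it did not, reads from their shared stretch cannot be told apart.

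The base of the 19S particle combines a ring of ATPases, which open the core and unfold substrates, with large scaffold and receptor subunits. The 6 ATPase genes spanned -0.25 to 0.26 on the log2 scale (median -0.14), 2 of them positive. The authors' deposited table gave the highest value for Psmc2, 0.26 (SE 0.32, p = 0.410), followed by Psmc6 at 0.22, and the lowest for Psmc1, -0.25 (SE 0.25, p = 0.314). Psmc5 stood at -0.24, Psmc3 at -0.15 and Psmc4 at -0.13 in the authors' deposited table. The other 3 base subunits all had negative values. Psmd2 had the lowest of them in the authors' deposited table, -0.45, or 73.4% of the control level (interval -0.98 to 0.09, p = 0.103). The ubiquitin receptor Psmd4 stood at -0.10 (p = 0.727) and the scaffold Psmd1 at -0.03 (p = 0.909) in the authors' deposited table, so that the sign they shared with Psmd2 lay well within error.

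The lid surrounds the deubiquitinase Psmd14, which cuts ubiquitin from the substrate before it enters the core. The authors' deposited table gave Psmd14 a value of 0.23 (interval -0.30 to 0.76, p = 0.404). The scaffold subunits of the lid, most of them built on the PCI domain that they share with the COP9 signalosome, ranged from -0.38 for Psmd8 (interval -0.86 to 0.10, p = 0.125) to 0.37 for Psmd3 (interval -0.74 to 1.49, p = 0.514) in the authors' deposited table. Psmd13 had -0.29 (p = 0.231) and overlaps Sirt3, a mitochondrial deacetylase gene on the opposite strand with -0.34 in the authors' deposited table. Psmd11, Psmd7 and Psmd6 lay between -0.10 and -0.06, and Psmd12 had 0.18. In all, 5 of the 8 lid genes were negative and 3 positive, with a median of -0.08.

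Over the 31 subunits of the standard 26S particle that the rule contains, 10 values were positive and 21 negative, with a median log2 fold change of -0.08 and quartiles of -0.22 and 0.07. The 7266 genes within the level range of the 45 better-measured members had 54.8% positive values and a median of 0.04. The core (5 of 14 positive, median -0.04) and the 19S particle (5 of 17 positive, median -0.10) had SDs across genes of 0.23 and 0.24. Adding Adrm1 and Shfm1, the remaining 2 subunits of the particle, gave 10 positive values of 33 and a median of -0.09. Subunit genes measured in the same libraries share their errors, so these counts are a description and carry no test.

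Assembly chaperones hold intermediates of the particle together and leave before it is complete. The chaperones of the 19S base had small values in the authors' deposited table, 0.13 for Psmd10 (gankyrin, p = 0.719), -0.08 for Psmd5 (p = 0.750) and -0.14 for Psmd9 (p = 0.608). Psmd10 is the one X-linked gene of the set. Of the chaperones that build the alpha ring, Psmg4 stood at 0.34 (interval -0.28 to 0.96, p = 0.286), Psmg2 at 0.27 (p = 0.348), Psmg1 at 0.03 (p = 0.935) and Psmg3, whose product pairs with that of Psmg4, at -0.28 (p = 0.411) in the authors' deposited table. The 7 chaperone genes had a median of 0.03, with 4 positive values.

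Alternative caps bind the core in place of the 19S particle. Psme1 and Psme2 encode the alpha and beta chains of the PA28 ring that favours the release of peptides, and the authors' deposited table gave -0.26 (p = 0.346) for the former and 0.08 (p = 0.813) for the latter. Psme3, the nuclear member of that family, had -0.14 (p = 0.712) and Psme4, the large cap PA200, had 0.19 (p = 0.532) in the authors' deposited table. Psmf1, an inhibitor of the isolated core, stood at 0.31 (interval -0.23 to 0.85, p = 0.259) in the authors' deposited table. These 5 genes had a median of 0.08 and 3 positive values. Psmc3ip, which is not a proteasome gene, stood at 0.31 (interval -0.60 to 1.21, p = 0.509) in the authors' deposited table. It overlaps Mlx, a transcription factor gene on the opposite strand, for which the authors' deposited table gave -0.61 (unadjusted p = 0.0441).

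Mean levels over both groups were compared per length, as CPM per kilobase of the principal GENCODE M21 transcript. The isoform in these cells was not measured, and no spread over libraries could be given, so neighbours in the order are not separated. The members together held 1.07% of the summed CPM of the table. The 31 standard subunits had a median of 163 CPM per kilobase, and the 7 assembly chaperones one of 43.2. Psmb6 had the highest level, 798 CPM per kilobase, followed by Psmb2 (471), Psma1 (456), Psma7 (447), Psmd14 (411) and Psma3 (406).

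Group medians of this level were 250 CPM per kilobase for the constitutive alpha ring, 171 for the constitutive beta ring, 166 for the ATPases, 113 for the other base subunits and 116 for the lid. The active-site genes Psmb5 (156) and Psmb7 (151) lay close together and well below Psmb6 in CPM per kilobase. Psmb10 reached 12.7 CPM per kilobase, while Psma8 (0.291) and Psmb11 (0.457) had the lowest levels of the set. Among the caps, Psme2 (130) and Psme1 (95.2) lay above Psmf1 (28.6), Psme4 (7.03) and Psme3 (6.87). With the shortest in place of the longest principal transcript, Psmf1 went from 28.6 to 78.6 and Psmd11 from 97.3 to 170 CPM per kilobase, and no other gene moved by more than 1.5 times.

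Psmd3, a required subunit of the lid, stood apart from the other standard subunits in level and precision. It had 19.4 CPM per kilobase, and the next lowest standard subunit, Psmd13, had 74.5, or 3.83 times as much. Its approximate SE of 0.57 was larger than that of 98.2% of the 2117 genes within 0.5 log2 CPM of its level, whose median was 0.33. Its fold change was therefore the least well determined among the standard subunits.

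**Figure D3:**
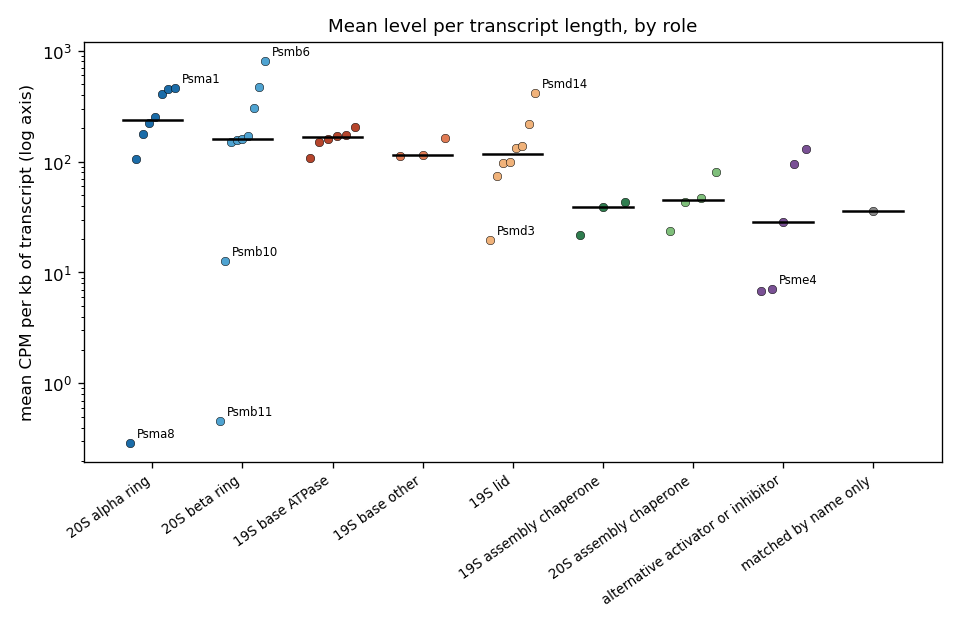
Mean level of each proteasome gene in CPM per kilobase of transcript (vertical log axis), grouped by role, with points for genes and a bar at the group median. The standard subunits lie at 74.5 CPM per kilobase or more, except Psmd3 at 19.4, and the tissue-specific subunits Psma8 and Psmb11 lie under 1.

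Genes that work with the proteasome but carry other names were taken from lists on its remaining parts and partners, on shuttle factors and the p97 unfoldase, on ubiquitin and its E1 enzymes, and on regulators of proteasome genes. The authors' deposited table called none of the 37 genes found. Of them, 2 had an unadjusted p under 0.05 with a positive fold change and 1 with a negative one, and the median was 0.09. Background shares for such a p were 3.51% of genes with a positive and 2.84% with a negative fold change. Shfm1, the small lid subunit also called Sem1, had the lowest value of these genes in the authors' deposited table, -0.81 (p = 0.0236, adjusted p = 0.844). Zfand5, a zinc finger activator of the particle, stood at 0.76 (p = 0.0113, adjusted p = 0.687) and Faf1, an adaptor of p97, at 0.81 (p = 0.0283, adjusted p = 0.905) in the authors' deposited table.

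Pomp, the chaperone that matures the beta ring, stood at 0.32 (p = 0.386) and the ubiquitin receptor Adrm1 at -0.37 (p = 0.164) in the authors' deposited table. The polyubiquitin gene Ubb stood at 0.28 (p = 0.435) in the authors' deposited table, and the 5 genes of ubiquitin and its E1 enzymes ranged from -0.25 to 0.28. Nfe2l1, the factor that induces proteasome genes when the particle is impaired, stood at 0.09 (p = 0.817) and its relative Nfe2l2 at -0.43 (p = 0.253) in the authors' deposited table. Among the 7 regulator genes 4 were positive, and none had an unadjusted p under 0.05.

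The COP9 signalosome, which removes Nedd8 from cullin ubiquitin ligases and resembles the lid in its subunits, was set beside the proteasome. The authors' deposited table called its subunit Gps1, at -1.46 (adjusted p = 0.000143), and gave Cops2 a value of 0.75 (adjusted p = 0.661, not called). The 9 signalosome genes ranged from -1.46 to 0.75 with a median of -0.09, and 3 of them had an absolute value over 0.5. Such a value was found in 14.3% of the 7266 genes within the level range of the 45 proteasome genes. Gps1 and Cops2 set the ends of the signalosome range, and the 8 lid genes of the name rule, from -0.38 to 0.37, lay within it. Shfm1, a lid subunit outside the rule, also lay within it at -0.81, which is beyond 0.5. Cytosolic ribosomal protein genes, another large complex with fixed stoichiometry, had a median of -0.03 over 75 genes, of which 71 were at or above the median level. None was called, none had an unadjusted p under 0.05, and 3 values lay beyond 0.5. These 75 values ranged from -0.76 to 1.22. Their mean levels reached down to -1.45 log2 CPM, while those of the 7266 genes began at 4.06. The difference between these complexes was not tested, since the table gives no values per library.

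**Figure D4:**
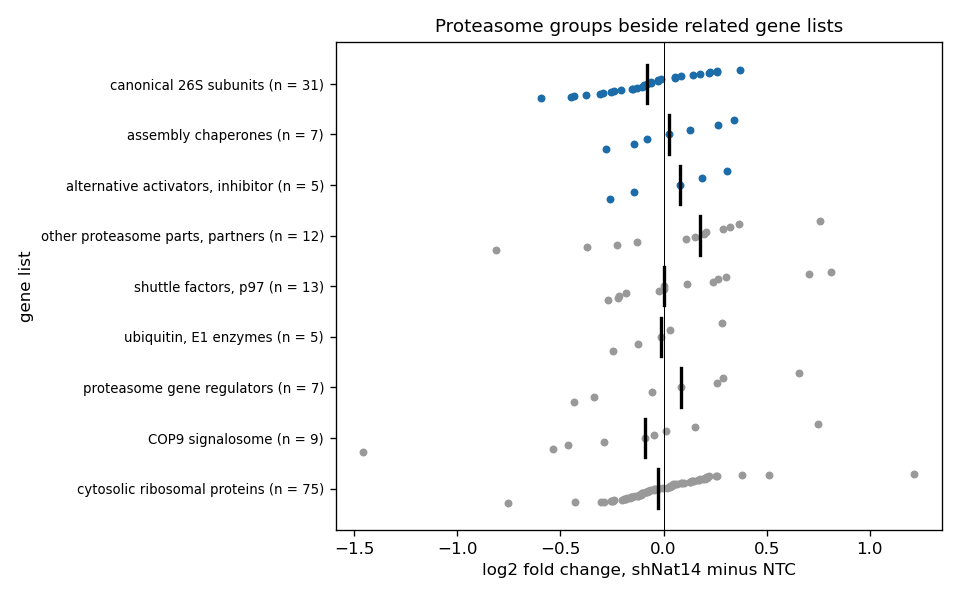
Log2 fold change (shNat14 minus NTC, horizontal axis) of each gene above the lowest level in 3 proteasome groups (blue) and 6 related lists (grey), with a bar at each median. The 31 standard subunits lie between -0.59 and 0.37, and the signalosome list extends to Gps1 at -1.46.

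Across the 45 members at or above the median level, fold changes were unrelated in rank to mean level (Spearman's rho 0.02) and weakly to transcript length (rho 0.14). Both are descriptions across genes of the same libraries. In all 11 of the 47 members overlap a protein-coding gene in the GENCODE annotation, on either strand, and 26 overlap no annotated gene. Psma2, Psmd1 and Psmg3 overlap such a gene on the same strand, where strand could not separate reads from a shared stretch.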

How the data were processed

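The study compared 3 shNat14 and 3 NTC libraries, grouped by sample title. The log2 fold changes, mean levels (log2 CPM), p-values and adjusted p-values were deposited by the authors, per the file headers, and were not altered. Tools listed in the submitters' processing notes are DESeq, HTSeq (0.5.4p1), SAMtools (0.1.19) and TopHat2 (2.0.8), with the build hg19, which is human while the symbols are mouse. The build, the normalization and the exact test are therefore unresolved, and the depth is unknown. Benjamini-Hochberg adjustment of the deposited p-values over 21937 rows gave the deposited adjusted values within rounding.

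Computed here were counts, medians, approximate SEs and 95% intervals, levels per length and motif matches, with Python 3.11.15, numpy 2.4.6, pandas 2.3.3 and scipy 1.17.1. The approximate SE was the absolute log2 fold change divided by the normal quantile of its p-value. How often such intervals contain the true change in these data was not tested. The 4537 genes at the lowest level were left out of the backgrounds for unadjusted p, median and sign. The share of all genes called and the summed CPM included them, and the promoter background of all genes was not filtered by level. Members, roles and lists were chosen with earlier results of these data known. All members are accounted for. Values are given for those at unadjusted p under 0.05, the extremes of each group, the active-site genes, Psmd14 and small groups. Values of other members, the comparison with ribosomal genes, the motifs and the remarks on Psmd3, overlapping genes and Xist were chosen after values were seen. A few entries of the marker and pathway lists are not reported here. Alternatives covered thresholds, adjustment, level filters, centring and members.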

Additional observations from a re-analysis of the deposited data

How the results depend on the processing

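The number of proteasome genes called was 0 at adjusted p under 0.05, and also at 0.1, with adjustment restricted to the better-measured genes (median level or higher) and under Bonferroni correction, with the authors' test as the only test. At unadjusted p, 1 member passed 0.05 (Psmb5, also among the 45 at or above the median level) and 0 passed 0.01. The median log2 fold change of -0.06 lay between -0.09 and -0.06 under other level filters, after centring on the median of well-measured genes (a shift of 0.03), and without Psmc3ip, and the share of positive values between 38.3 and 40.4%. Approximate intervals stayed within 1 log2 unit of 0 for 42 of 47 members at 95% and 30 at 99%, the latter chosen after seeing the data. No paired analysis was possible because each gene has 1 value for the whole comparison, and likewise no library could be left out. Mean level limited precision for Psma8 and Psmb11.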
